A study of Mus musculus with 12 samples.

Results

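The genes described here are the parathyroid hormone (PTH) receptor gene Pth1r and 8 genes of the cyclic AMP (cAMP) response that lies downstream of it: Gnas, Pde4b, Pde4d, Rgs2, Crem, Nr4a1, Nr4a2 and Fos. They were picked by symbol, and the array row with the highest mean was used for each gene. Of the 9 genes, 8 were measured by a row with a single gene symbol, out of 19938 genes measured in this way. The only Gnas row also carried the symbol of a second gene, so Gnas was not analysed here.

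Whole bone marrow was flushed from long bones of B6 mice, and its total RNA was measured on 12 whole-transcript arrays, in 4 groups of 3. The irradiated PTH group was sub-lethally irradiated at 10 days of age in 2 fractions of 310 cGy and then received PTH from day 11 to day 15. The irradiated vehicle group had the same irradiation and received vehicle on those days. The nonirradiated PTH and nonirradiated vehicle groups received PTH or vehicle on the same days without irradiation. All mice were 16 days old at harvest and had been treated for 5 days. The sources used here give neither the PTH dose nor the time between the last dose and harvest. Whether each array holds RNA of its own mouse is unstated in the labels, and p-values here reflect only array-to-array spread, which may be technical.

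PTH binds PTH1R, a G protein-coupled receptor of osteoblasts, osteocytes and their stromal precursors. The receptor activates the stimulatory G protein encoded by Gnas, adenylyl cyclase makes cAMP, and protein kinase A phosphorylates CREB, which binds cAMP response elements in promoters. Targets such as Fos, Nr4a1, Nr4a2, Rgs2 and the repressor form of Crem are known to rise within hours of a PTH pulse in bone cells and to decline again, and phosphodiesterases of the PDE4 family break cAMP down.

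Values are log2 expression, so a difference of 1 is a 2-fold difference. A gene was called when limma's moderated test gave a Benjamini-Hochberg adjusted p under 0.05 over all 19938 genes. By the female-specific RNA Xist, 1 of 3 arrays was female in the irradiated PTH group, 1 of 3 in the irradiated vehicle group, 3 of 3 in the nonirradiated PTH group and 0 of 3 in the nonirradiated vehicle group. Without irradiation, sex and PTH therefore cannot be told apart. Irradiated PTH replicate 3 and nonirradiated vehicle replicate 3 had narrower value ranges than the rest, with interquartile ranges of 2.66 and 2.63, against 2.999 to 3.14 in the other arrays.

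Irradiation was the factor that separated these genes, and it did so for 2 of them. Pde4b and Rgs2 were both lower in irradiated marrow, each at 46.0% to 55.2% of the nonirradiated level, with and without PTH. Averaged over both treatments, 2 of the 8 measured members were lower and 0 were higher, against a background of 3.59% of all genes called lower and 2.51% called higher. The members were chosen with earlier results of these data known, so this count is no independent test. The remaining 6 members, the receptor gene Pth1r among them, did not pass in any comparison. PTH itself gave 0 calls among the 8 members in irradiated and in nonirradiated marrow, where 0 of all 19938 genes were called.

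**Figure D1:**
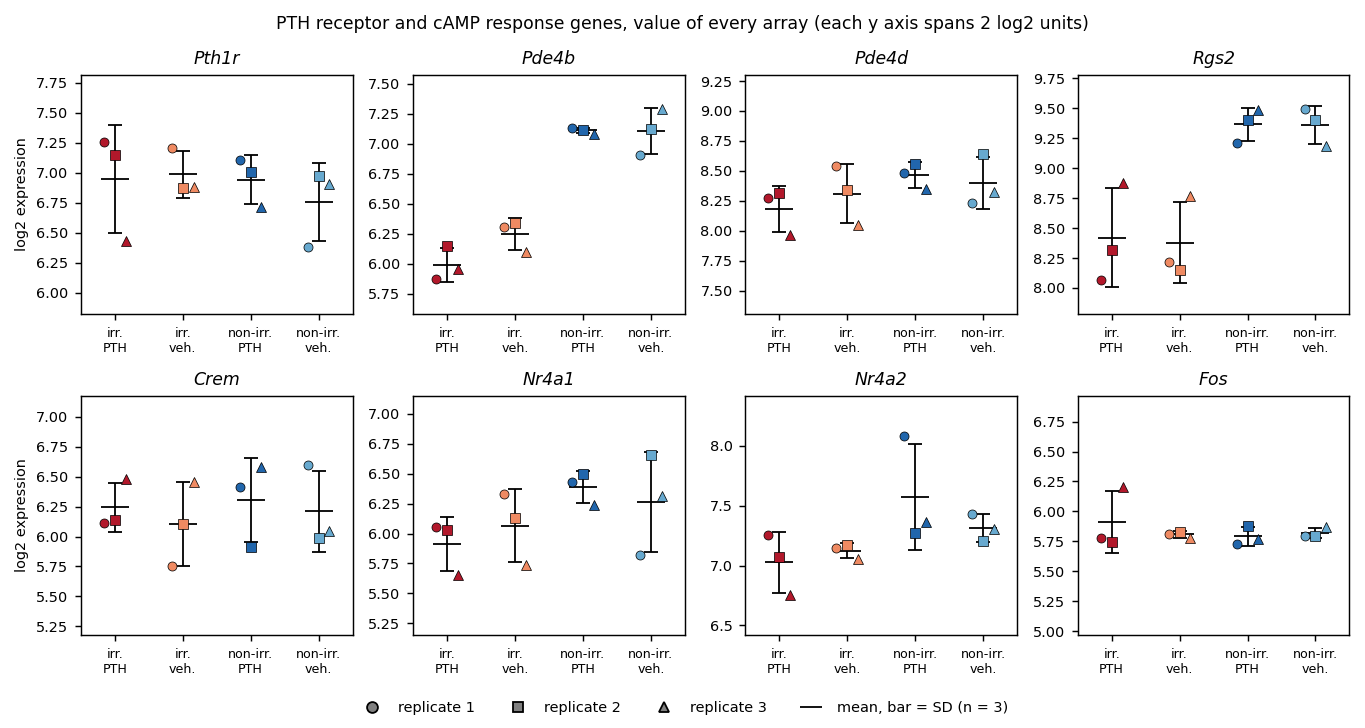
Log2 expression of the 8 measured members in every array. Points are arrays, with shapes for replicates 1 to 3, horizontal lines are group means and bars are SD (n = 3 in each of the 4 groups). The irradiated arrays of Pde4b (5.87 to 6.34) and Rgs2 (8.07 to 8.88) all lie below their nonirradiated arrays (6.91 to 7.29 and 9.19 to 9.50).

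Pth1r encodes the receptor itself. Its values were 7.26, 7.15 and 6.43 in irradiated PTH arrays and 7.21, 6.87 and 6.88 in irradiated vehicle arrays. They were 7.11, 7.004 and 6.71 in nonirradiated PTH arrays and 6.38, 6.98 and 6.91 in nonirradiated vehicle arrays. The 4 groups overlapped throughout, and the 2 lowest arrays came from opposite groups, irradiated PTH replicate 3 and nonirradiated vehicle replicate 1. The difference between irradiated PTH and nonirradiated PTH was 0.0045 (95% confidence interval -0.49 to 0.50). Between irradiated vehicle and nonirradiated vehicle it was 0.23 (95% confidence interval -0.26 to 0.73). Neither passed, with adjusted p = 0.996 and 0.724 in limma. With intervals about 1 log2 unit wide, small shifts of the receptor gene were not detectable with 3 arrays a group.

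The osteoblast genes that mark the cells known to carry the receptor also gave 0 calls. Of 10 listed osteoblast and bone matrix markers, 8 were measured, Alpl, Col1a1, Ibsp and Dmp1 among them. Their mean level ran from 8.19 to 8.80 in irradiated PTH arrays and from 8.34 to 8.37 in irradiated vehicle arrays. It ran from 8.53 to 9.04 in nonirradiated PTH arrays and from 8.08 to 8.54 in nonirradiated vehicle arrays. For PTH, 0 of the 8 markers and 0 of all genes were called, so the signs that follow are descriptive only. Without irradiation, where sex and PTH cannot be told apart, all 8 had positive PTH differences. Their median was 0.36, against 0.011 over all genes. After irradiation 5 were positive and 3 negative, and 3 had an unadjusted p under 0.05 in limma, against 3.81% of all genes. Without irradiation 1 did, against 1.79%. In whole marrow, fewer cells of a type and less RNA per cell cannot be told apart, for the receptor gene or for the genes that follow.

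Pde4b encodes a cAMP-specific phosphodiesterase that is abundant in leukocytes and limits cAMP signals. It measured 5.87, 6.15 and 5.95 in irradiated PTH arrays, against 7.13, 7.12 and 7.09 in nonirradiated PTH arrays. It measured 6.31, 6.34 and 6.09 in irradiated vehicle arrays, against 6.91, 7.13 and 7.29 in nonirradiated vehicle arrays. All 6 irradiated arrays lay below all 6 nonirradiated arrays. Group means were 5.99 ± 0.143 in irradiated PTH, 6.25 ± 0.135 in irradiated vehicle, 7.11 ± 0.0224 in nonirradiated PTH and 7.11 ± 0.192 in nonirradiated vehicle marrow (SD, n = 3). With PTH, Pde4b fell by 1.12 (SE 0.131, limma adjusted p = 0.000744), to 46.0% of the nonirradiated level. With vehicle it fell by 0.86 (SE 0.131, limma adjusted p = 0.00472), to 55.2%. In the comparison with PTH 2.43% of all genes were called, 0.692% higher and 1.74% lower. With vehicle 2.22% were called, 1.21% higher and 1.01% lower. Counted by arrays that did not overlap, 5 of the 8 members were lower with PTH and 3 with vehicle, against 10.9% and 9.83% of all genes.

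In the order of group means of Pde4b, the neighbours on each side of the gap did not pass when compared. The irradiated PTH mean was below the irradiated vehicle mean by 0.26 (95% confidence interval -0.54 to 0.026), with overlapping arrays. In limma that difference had an unadjusted p of 0.0715 and an adjusted p of 0.844. Both nonirradiated means were nearly equal, with a PTH minus vehicle difference of 0.0045 (95% confidence interval -0.28 to 0.29). The fall with PTH was the larger one in size, but the difference between both falls was -0.26 (SE 0.185) and did not pass, with limma adjusted p = 0.732.

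Rgs2 encodes a regulator of G protein signalling that speeds the switching off of Gq and damps adenylyl cyclase, and it is a known early target of PTH in bone cells. It measured 8.07, 8.32 and 8.88 in irradiated PTH arrays, against 9.21, 9.40 and 9.48 in nonirradiated PTH arrays. It measured 8.22, 8.15 and 8.77 in irradiated vehicle arrays, against 9.50, 9.40 and 9.19 in nonirradiated vehicle arrays. Again all 6 irradiated arrays lay below all 6 nonirradiated arrays, and replicate 3 of each irradiated group was the closest to them. Group means were 8.42 ± 0.415 in irradiated PTH, 8.38 ± 0.340 in irradiated vehicle, 9.36 ± 0.139 in nonirradiated PTH and 9.36 ± 0.159 in nonirradiated vehicle marrow (SD, n = 3). Averaged over treatments, Rgs2 fell by 0.96 (SE 0.151, limma adjusted p = 0.00211), to 51.2% of the nonirradiated level. The means with PTH and with vehicle were within 0.041 of each other after irradiation and within 0.0025 without it.

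**Figure D2:**
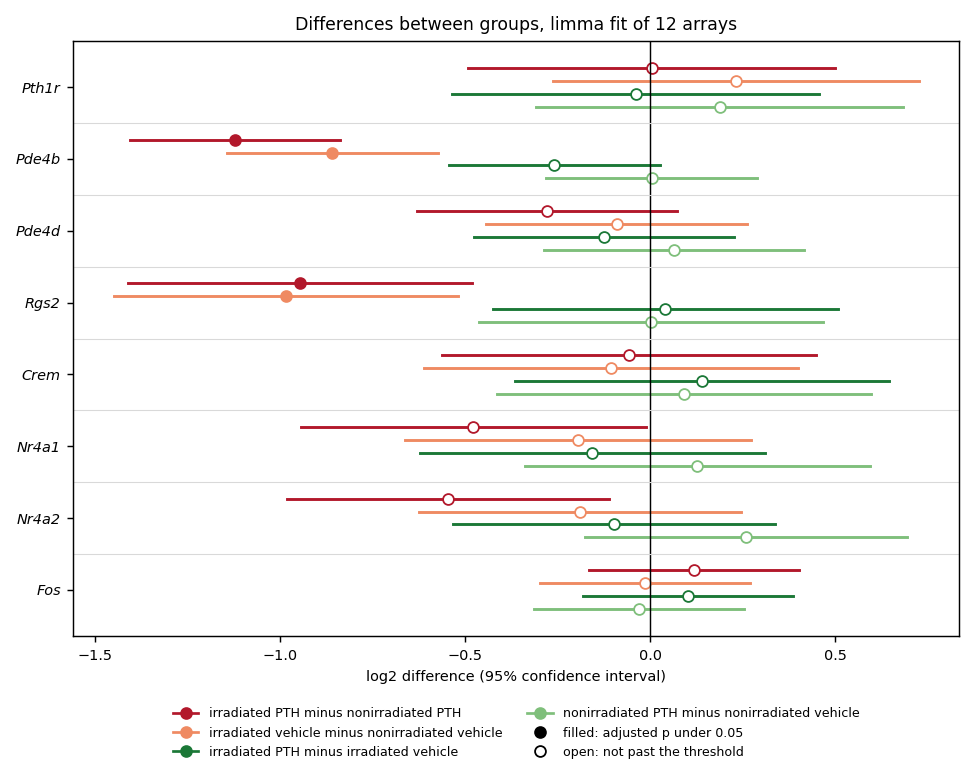
Differences between groups on the log2 scale for the 8 measured members, with 95% confidence intervals from the limma fit of 12 arrays. Filled points passed an adjusted p of 0.05. The 4 filled points are Pde4b (-1.12 and -0.86) and Rgs2 (-0.95 and -0.98) in the irradiation comparisons, and every interval of a PTH comparison spans 0.

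The Rgs2 call was less secure within a single treatment than averaged over both. With PTH the fall was 0.95 (SE 0.213, limma adjusted p = 0.0405), and with vehicle it was 0.98 (SE 0.213, limma adjusted p = 0.034). The vehicle call was kept in 4 of 12 fits that left out 1 array, those without irradiated vehicle replicate 3 or any irradiated PTH array. It ended without irradiated vehicle replicate 1 (adjusted p = 0.129) or 2 (0.155), nonirradiated PTH replicate 1 (0.0539), 2 (0.0543) or 3 (0.0565), and nonirradiated vehicle replicate 1 (0.0889), 2 (0.0991) or 3 (0.0644). The PTH call was kept in 3 of 12 such fits, those without irradiated PTH replicate 3, irradiated vehicle replicate 3 or nonirradiated vehicle replicate 1. In the others its adjusted p lay between 0.051 and 0.149. The change itself stayed between -1.18 and -0.77 in all of these fits. Averaged over treatments, Rgs2 kept its call in 12 of 12 fits, with adjusted p up to 0.00872, and Pde4b kept its calls in all 3 irradiation comparisons in 12 of 12 fits.

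**Figure D3:**
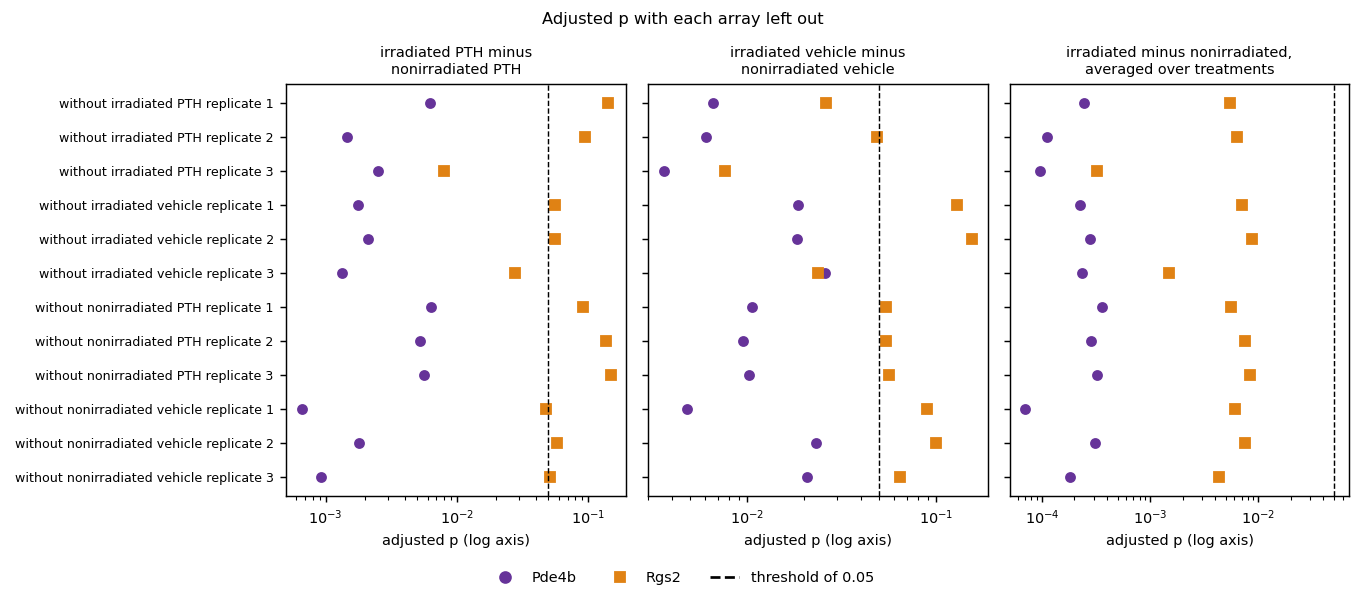
Adjusted p of Pde4b (circles) and Rgs2 (squares) in 3 irradiation comparisons with each of the 12 arrays left out in turn, on a log axis. The dashed line is the threshold of 0.05. Pde4b stays left of the line in every fit, at most at 0.0257, while Rgs2 does so in 3 fits for irradiation with PTH, 4 with vehicle and 12 for the average.

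Most markers of lymphocytes moved in the same direction between the same groups. Of 8 measured B lineage markers, 7 fell averaged over treatments, with a median change of -2.24, against -0.0087 over all genes. Their mean level per array was 7.11 to 7.60 in irradiated PTH and 7.52 to 7.83 in irradiated vehicle marrow. It was 9.62 to 9.92 in nonirradiated PTH and 9.45 to 9.85 in nonirradiated vehicle marrow. Of 7 T and NK cell markers, 4 fell, with mean levels of 6.30 to 6.47 in irradiated PTH and 6.50 to 6.62 in irradiated vehicle marrow. Their levels were 7.18 to 7.32 in nonirradiated PTH and 6.75 to 7.09 in nonirradiated vehicle marrow. With vehicle alone, 1 of these 7 was called lower and 2 had positive differences. One of those 2 was Nkg7, with means of 8.65 in irradiated vehicle and 7.95 in nonirradiated vehicle marrow. Averaged over treatments, 1 of 11 neutrophil markers fell, with 5 positive and 6 negative differences and a median of -0.37. Monocyte and macrophage markers had 1 positive difference, which was called, and 5 negative ones, with a median of -0.26. All 4 megakaryocyte and platelet markers had negative differences, 2 of them called, with a median of -0.54. Over all genes 3.59% were called lower and 2.51% higher. The part of any of these cells in the falls of Pde4b and Rgs2 was not tested.

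The genes whose 12 values lay closest to those of Pde4b, after each gene was centred on its own mean, were Bcl7a, Foxp1, Btg1, Dennd5b and Fndc9. Their root mean square distance from Pde4b was 0.149 to 0.188 on the log2 scale. They were taken among 922 genes that varied at least as much as Pde4b. For Rgs2 the closest of 774 genes were Tifa, a TRAF-binding adaptor, Stambpl1, a deubiquitinase, Gpr171, a G protein-coupled receptor, Lig4, the DNA ligase of end joining, and Rel, an NF-kappaB subunit. These lay at 0.154 to 0.210. For Pth1r the closest of 6098 genes were Porcn, which acylates Wnt proteins, Mmp14, a membrane collagenase, Dap, Slit3, a secreted guidance ligand, and Crim1, at 0.109 to 0.127. Without the 2 narrow-range arrays, 1 of the 5 genes closest to Pde4b, 4 of those closest to Rgs2 and 2 of those closest to Pth1r were again among the closest 5. Arrays of all groups enter these distances, so an irradiation difference shared by 2 genes is part of their closeness.

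Pde4d encodes a second cAMP phosphodiesterase of the same family and was measured by 3 rows. On the row with the highest mean it measured 8.27, 8.31 and 7.96 in irradiated PTH arrays, against 8.49, 8.56 and 8.35 in nonirradiated PTH arrays. It measured 8.54, 8.34 and 8.05 in irradiated vehicle arrays, against 8.23, 8.64 and 8.32 in nonirradiated vehicle arrays. The groups with PTH did not overlap, and those with vehicle did. The differences of -0.28 and -0.09 had limma adjusted p = 0.5 and 0.856. The rows of Pde4d disagreed: on the row with the largest interquartile range the same differences were 0.37 and 0.17, and neither passed.

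Nr4a1 and Nr4a2 encode orphan nuclear receptors, NUR77 and NURR1, which are induced by cAMP as immediate early genes. Nr4a1 measured 6.06, 6.03 and 5.65 in irradiated PTH arrays, against 6.43, 6.50 and 6.24 in nonirradiated PTH arrays. Those groups did not overlap, whereas the irradiated vehicle arrays (6.33, 6.13 and 5.74) overlapped the nonirradiated vehicle arrays (5.82, 6.65 and 6.31). Nr4a2 measured 7.26, 7.07 and 6.75 in irradiated PTH arrays, against 8.08, 7.27 and 7.36 in nonirradiated PTH arrays. Its irradiated vehicle arrays (7.14, 7.18 and 7.05) also lay below the nonirradiated vehicle arrays (7.43, 7.20 and 7.30), by a gap of a few hundredths. Nonirradiated PTH replicate 1 stood apart from the rest of its group in Nr4a2.

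Neither receptor gene passed over all genes. With PTH, the irradiation difference was -0.48 for Nr4a1 (SE 0.214, limma adjusted p = 0.362) and -0.54 for Nr4a2 (SE 0.200, limma adjusted p = 0.237). With vehicle these differences were -0.19 for both, with limma adjusted p = 0.756 and 0.746. Averaged over treatments they were -0.34 for Nr4a1 and -0.37 for Nr4a2, with unadjusted p of 0.0466 and 0.0234, in a comparison where 17.3% of all genes had an unadjusted p under 0.05. Without nonirradiated PTH replicate 1 the Nr4a2 difference with PTH was -0.29.

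Fos, the AP-1 subunit, varied little. It measured 5.78, 5.75 and 6.21 in irradiated PTH arrays and 5.81, 5.83 and 5.78 in irradiated vehicle arrays. It measured 5.73, 5.88 and 5.77 in nonirradiated PTH arrays and 5.80, 5.79 and 5.87 in nonirradiated vehicle arrays. One array, irradiated PTH replicate 3, was above the other 11, which spanned 5.73 to 5.88. The largest of its 4 differences in size was 0.12, between irradiated and nonirradiated PTH marrow (95% confidence interval -0.16 to 0.40, limma adjusted p = 0.737). The table gives no detection call, so whether Fos lay above background on these arrays cannot be read from it.

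Crem encodes the cAMP response element modulator, whose inducible form ICER represses cAMP targets. The row is named by gene alone, so ICER cannot be read apart from the other transcripts. It measured 6.11, 6.14 and 6.48 in irradiated PTH arrays and 5.75, 6.10 and 6.46 in irradiated vehicle arrays. It measured 6.41, 5.91 and 6.58 in nonirradiated PTH arrays and 6.60, 5.99 and 6.05 in nonirradiated vehicle arrays. All groups overlapped, with SDs of 0.205 to 0.353, and the 4 differences lay between -0.11 and 0.14.

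The response to PTH was read from the same arrays. After irradiation, the differences between irradiated PTH and irradiated vehicle marrow lay between -0.26 for Pde4b and 0.14 for Crem, with limma adjusted p of at least 0.844. Without irradiation, the differences between nonirradiated PTH and nonirradiated vehicle marrow lay between -0.03 for Fos and 0.26 for Nr4a2, with limma adjusted p = 1. Limma called 0 of 19938 genes in each comparison (0%), with 3.81% and 1.79% of all genes at an unadjusted p under 0.05. Of the 8 members, 0 had an unadjusted p under 0.05 in either comparison. The 95% confidence intervals of all 8 members lay between -0.62 and 0.65 after irradiation and between -0.46 and 0.69 without it. With sex as a term, the difference without irradiation turned to -0.21 for Pth1r, -0.18 for Pde4d and -0.18 for Nr4a1, none of which passed.

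The rest of the pathway was followed through 9 lists with 116 entries, of which 107 genes were measured. Averaged over treatments, 9 of the 107 were higher and 4 lower in irradiated marrow, or 12.1%, against 6.1% of all genes. The lists were chosen with earlier results of these data known, so these shares are no independent test of the pathway. PTH gave 0 calls among the 107 in either irradiation state. As 0 of all 19938 genes were called there, this 0 is not particular to the pathway. Of the 107, 0 had an unadjusted p under 0.05 in limma after irradiation and 1 did without it. The irradiation calls were spread over several steps of the pathway, from the cyclases to the bone genes that PTH is known to regulate. Changes in the rest of this account are log2 differences of irradiated minus nonirradiated marrow averaged over treatments.

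At the receptor step, 0 of 7 ligand and related receptor genes and 0 of 14 genes of G proteins and receptor desensitisation passed. Gnal, which encodes a second stimulatory G protein alpha subunit, came nearest in the G protein list, with 0.35 (limma adjusted p = 0.0651), and passed without nonirradiated vehicle replicate 1 (0.0418) or irradiated PTH replicate 2 (0.0206). Gnal also passed with a mean-variance trend (adjusted p = 0.0438), array weights (0.039) and quantile normalization repeated (0.0388). Of 9 adenylyl cyclases, Adcy2 rose by 0.49 (SE 0.1002, limma adjusted p = 0.0114). Of 10 genes of protein kinase A and the cAMP-activated exchange factors, Prkar2a, a regulatory kinase subunit, rose by 0.60 (SE 0.103, limma adjusted p = 0.00373). Its group means were 8.31 ± 0.156 in irradiated PTH, 8.55 ± 0.0989 in irradiated vehicle, 7.84 ± 0.210 in nonirradiated PTH and 7.81 ± 0.188 in nonirradiated vehicle marrow (SD, n = 3).

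Pde4b was not the only phosphodiesterase gene that was lower in irradiated marrow. Of the 12 other phosphodiesterases, 3 fell and 0 rose, against 3.59% and 2.51% of all genes. Their median was -0.19, against -0.0087 over all genes. Pde3a, a cGMP-inhibited enzyme of platelets and muscle, fell by 1.16 (SE 0.178, limma adjusted p = 0.00181). Pde1b, a calmodulin-dependent enzyme, fell by 0.70 (SE 0.109, limma adjusted p = 0.00206). Pde3b, known from adipocytes, fell by 0.47 (limma adjusted p = 0.0442), and this call was kept in 3 of 12 fits that left out 1 array, with adjusted p up to 0.122. Those 3 were the fits without nonirradiated vehicle replicate 3, nonirradiated PTH replicate 2 or irradiated PTH replicate 3. The Pde3b call also ended with a mean-variance trend (adjusted p = 0.0658), quantile normalization repeated (0.0543), arrays centred on their medians (0.073) and sex as a term (0.0754). Pde2a had -0.61 and did not pass (limma adjusted p = 0.0955). It passed without irradiated PTH replicate 2 (adjusted p = 0.0343), with array weights (0.0218) and with the replicate number as a block (0.0468). The PDE4 genes other than Pde4b, including Pde4d, did not pass. Of 4 measured megakaryocyte and platelet markers, 2 fell in the same comparison, against 3.59% of all genes. The part of these cells in the Pde3a difference was not tested. The mean level of the 4 markers ran from 8.99 to 9.53 in irradiated PTH and 9.06 to 9.21 in irradiated vehicle arrays. It ran from 9.75 to 10.06 in nonirradiated PTH and 9.46 to 9.81 in nonirradiated vehicle arrays.

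Rgs2 went the other way from the RGS genes that passed. Of 13 other RGS genes, 2 rose and 0 fell, against 2.51% and 3.59% of all genes. Rgs4, a regulator of Gi and Gq signalling, rose by 1.36 (SE 0.178, limma adjusted p = 0.00063), with means of 7.52 and 7.70 in irradiated PTH and irradiated vehicle marrow, against 6.27 and 6.23 in nonirradiated PTH and nonirradiated vehicle marrow. Rgs16 rose by 0.67 (SE 0.109, limma adjusted p = 0.00264). The list's median was 0.02, within a range of -0.49 to 1.36, with 8 differences positive and 5 negative.

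**Figure D4:**
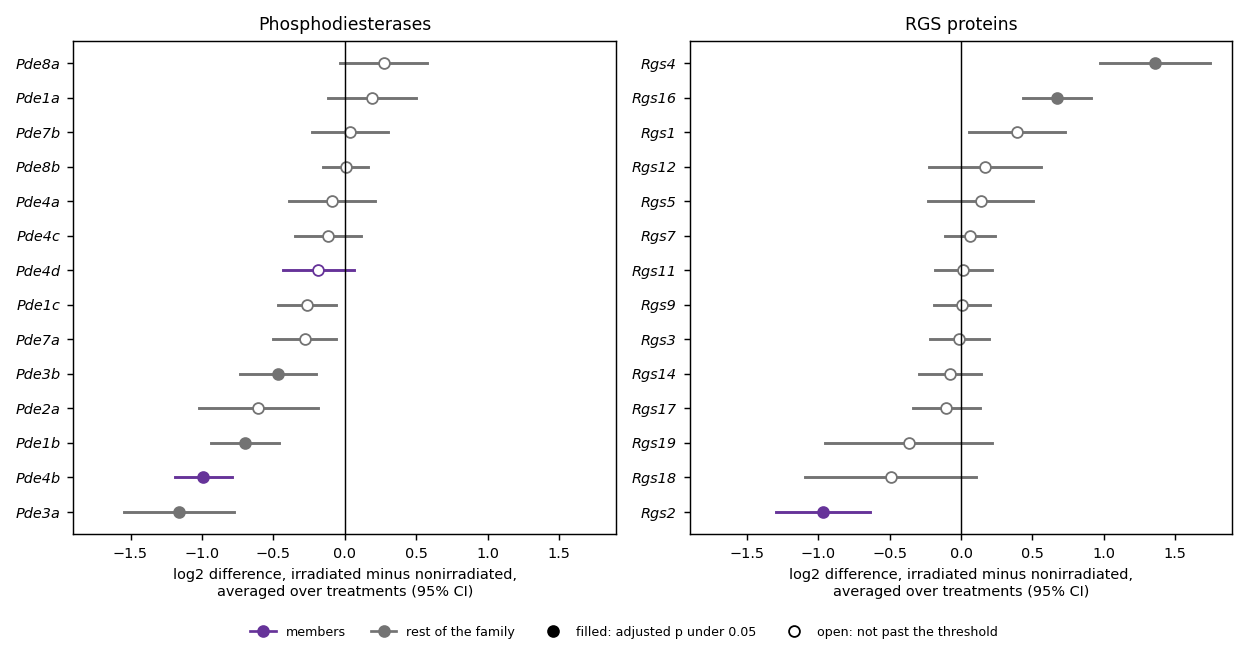
Log2 differences of irradiated minus nonirradiated marrow, averaged over both treatments, with 95% confidence intervals, for 14 phosphodiesterase genes (left) and 14 RGS genes (right). Members are drawn in purple and filled points passed an adjusted p of 0.05. Pde4b (-0.99) lies beside Pde3a (-1.16) at the low end, and Rgs2 (-0.96) lies opposite Rgs4 (1.36).

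Among other immediate early genes the directions were mixed. Of 18 genes, Ier3, a stress-induced survival gene, rose by 1.48 (SE 0.206, limma adjusted p = 0.000974), and Zfp36, which encodes the mRNA-destabilising protein tristetraprolin, fell by 0.57 (limma adjusted p = 0.0121). Egr2, a zinc finger transcription factor, rose by 0.61 (limma adjusted p = 0.0399), a call kept in 1 of 12 fits that left out 1 array, the one without irradiated PTH replicate 3, with adjusted p up to 0.106. None of the CREB family and coactivator list passed (0 of 12). Sik1, a kinase that restrains CREB coactivators, came nearest with -0.79 (limma adjusted p = 0.0574), and passed without nonirradiated vehicle replicate 1 (adjusted p = 0.00707) or irradiated vehicle replicate 1 (0.0421). Sik1 also passed with array weights (adjusted p = 0.00505), arrays centred on their medians (0.0398), dim genes left out (0.0434) and the replicate number as a block (0.0497).

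Of 12 bone genes known to respond to PTH, 3 rose with irradiation and 0 fell, against 2.51% and 3.59% of all genes. Mmp13, a collagenase that PTH induces in osteoblasts, rose by 0.88 (SE 0.128, limma adjusted p = 0.00134). Its means were 11.82 in irradiated PTH, 11.66 in irradiated vehicle, 11.16 in nonirradiated PTH and 10.56 in nonirradiated vehicle marrow. Without irradiation its PTH arrays (10.91 to 11.35) lay above its vehicle arrays (10.35 to 10.67), where sex and PTH cannot be told apart. That PTH difference was not called. Il6, a cytokine that PTH induces in stromal cells, rose by 1.03 (SE 0.168, limma adjusted p = 0.00267). Its means were low, at 5.01 in irradiated PTH, 4.67 in irradiated vehicle, 3.72 in nonirradiated PTH and 3.90 in nonirradiated vehicle marrow. The filter on dim genes left Il6 out, and without a detection call it is open whether Il6 lay above background. Ccl2, a monocyte chemokine, rose by 0.49 (limma adjusted p = 0.0441), a call kept in 3 of 12 fits that left out 1 array, with adjusted p up to 0.109. Those 3 left out replicate 3 of irradiated PTH, replicate 1 of irradiated vehicle or replicate 2 of nonirradiated vehicle marrow. The Ccl2 call also ended with sex as a term (adjusted p = 0.0735) and with both narrow-range arrays left out (0.0814). Tnfsf11, which encodes the osteoclast factor RANKL, had 0.37 and did not pass (limma adjusted p = 0.0627), except without irradiated PTH replicate 2 (0.0118). Adipocyte markers moved the same way: of 6 measured, 5 rose, against 2.51% of all genes. Their mean levels were 7.93 to 8.28 in irradiated PTH and 8.49 to 8.63 in irradiated vehicle arrays. Those levels were 7.08 to 7.38 in nonirradiated PTH and 7.16 to 7.42 in nonirradiated vehicle arrays, and their part in these rises was not tested.

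Several members are known for cAMP response elements in their promoters, so RefSeq promoter windows of 300 bases (GRCm38.p6) were searched on both strands for the full element TGACGTCA and for its 5-base core TGACG, which is also part of the full one. Windows of 8 of the 9 members were searched, 16 in all. Crem was left out of this search, so the member counts that follow say nothing on its promoter. The full element was in 0 of these windows and in 1.79% of all 32851 windows. The core was in 9 of the 16 windows and in 20.8% of all windows, and in at least 1 window of 7 of the 8 genes, against 23.0% of all 27025 genes. Genes with several windows have more chances of a match, and windows of Pth1r, Gnas and Pde4b number 3, 4 and 4. Windows 1 and 3 of Gnas overlap and hold the same match, which is counted in both. GC content ran from 39.7% in the Pde4d window to 81.7% in the Nr4a2 window, and the shares of all windows were not matched for it. The members were picked as genes of the cAMP response, so their share with the core is no independent test against all genes. A match says nothing on whether CREB binds there.

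The windows of both genes that fell are shown beside those of 3 immediate early members that did not pass, each written from 5′ to 3′ on the strand of its gene, with matches to the core in capitals (CGTCA is the core read on the opposite strand).
Rgs2: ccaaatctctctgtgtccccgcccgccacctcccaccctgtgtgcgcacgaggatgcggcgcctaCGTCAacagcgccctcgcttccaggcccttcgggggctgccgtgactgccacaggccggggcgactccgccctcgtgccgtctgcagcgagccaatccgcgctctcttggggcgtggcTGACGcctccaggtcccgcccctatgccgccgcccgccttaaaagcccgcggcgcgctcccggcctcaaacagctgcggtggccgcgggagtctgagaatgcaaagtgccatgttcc
Pde4b: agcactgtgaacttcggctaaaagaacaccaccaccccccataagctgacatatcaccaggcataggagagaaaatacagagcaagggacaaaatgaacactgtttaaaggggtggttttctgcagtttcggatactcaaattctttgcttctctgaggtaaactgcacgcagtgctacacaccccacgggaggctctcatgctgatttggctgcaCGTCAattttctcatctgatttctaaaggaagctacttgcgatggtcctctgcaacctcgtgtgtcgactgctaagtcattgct
Nr4a1: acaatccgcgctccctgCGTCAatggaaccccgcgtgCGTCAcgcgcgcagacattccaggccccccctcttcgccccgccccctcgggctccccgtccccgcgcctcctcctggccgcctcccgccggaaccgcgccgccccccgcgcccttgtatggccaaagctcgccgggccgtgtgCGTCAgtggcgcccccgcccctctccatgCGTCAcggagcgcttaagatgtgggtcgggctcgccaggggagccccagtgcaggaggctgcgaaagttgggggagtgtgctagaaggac
Nr4a2: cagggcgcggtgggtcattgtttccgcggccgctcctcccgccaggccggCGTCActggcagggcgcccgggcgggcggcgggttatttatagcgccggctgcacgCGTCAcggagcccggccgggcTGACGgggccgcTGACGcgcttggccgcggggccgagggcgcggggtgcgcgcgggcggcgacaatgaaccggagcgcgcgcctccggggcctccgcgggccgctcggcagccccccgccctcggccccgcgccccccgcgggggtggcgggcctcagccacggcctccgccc
Fos: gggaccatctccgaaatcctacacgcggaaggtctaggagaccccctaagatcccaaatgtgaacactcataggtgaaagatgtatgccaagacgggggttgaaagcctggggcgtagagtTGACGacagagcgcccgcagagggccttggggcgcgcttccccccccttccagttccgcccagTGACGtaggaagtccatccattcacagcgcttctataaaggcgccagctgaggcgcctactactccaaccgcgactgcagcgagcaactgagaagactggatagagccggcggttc
The windows lie at chr1:144004100-144004399 (minus strand) for Rgs2, chr4:102421305-102421604 (plus) for Pde4b, chr15:101266596-101266895 (plus) for Nr4a1, chr2:57123954-57124253 (minus) for Nr4a2 and chr12:85473640-85473939 (plus) for Fos. Rgs2 held 2 matches, Pde4b 1, Nr4a1 4, Nr4a2 4 and Fos 2. The other 3 windows of Pde4b held 0, and so did the window of Pde4d.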

How the data were processed

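Total RNA of whole bone marrow was measured on 12 arrays, 3 in each of 4 groups set by the sample titles. Values are on the log2 scale in the deposited table, as judged from their range. RMA, affy and limma are named in the submitters' processing notes without version or role, and the sources used here do not give the arrays over which normalization ran. Of 35556 rows, 21789 had 1 gene symbol in the platform annotation, 1621 had several and 12146 had none listed. Symbols were updated through gene identifiers in RefSeq's GRCm38.p6 table, and 91 rows had no match there. For the 999 genes with several rows the one with the highest mean was used.

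All 12 arrays were fitted as 4 group means (8 residual degrees of freedom) with limma 3.58.1 in R 4.3.3 and empirical Bayes moderation. There were 7 contrasts, each adjusted over 19938 genes by the method of Benjamini and Hochberg. For a median gene, the SE of a 2-group difference was 0.166 (log2), a precision limited by the number of arrays. The fit was tested on simulated data. The members and lists were chosen with earlier results of these data known. Of each pathway list, the up to 4 genes with the smallest p in the average irradiation contrast could be named, and were where the adjusted p was under 0.1. The listed genes without a row of their own symbol were not analysed here. The alternatives changed the row of a gene, the scaling, the filter on dim genes, array weights, the variance model, a sex or replicate term, and the arrays included.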

Additional observations from a re-analysis of the deposited data

How the results depend on the processing

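The count of 2 members called held under every alternative for irradiation averaged over treatments, except with unadjusted p-values, where it was 4, Nr4a1 and Nr4a2 being added. For irradiation with PTH the count was 1, with Rgs2 lost, under a mean-variance trend, with only the groups compared, with quantile normalization repeated and with arrays centred on their medians, and 4 with unadjusted p-values. For irradiation with vehicle it was 1 with sex as a term, where Rgs2 had an adjusted p of 0.0738. Leaving out each array in turn gave counts of 1 to 2 in both comparisons. Pde4b stayed past the threshold under every alternative in all 3 irradiation comparisons. The PTH comparisons and the difference between both irradiation effects gave 0 members under every alternative. Of 1430 values of single genes under the alternatives, 1273 kept their direction and side of the threshold, 57 lost a call and 23 gained one. The alternatives counted here include unadjusted p-values, where every log2 change is the one reported. Calls gained under that setting come from leaving out the adjustment. The cause of the other changes was not tested. In 77 of the 1430 values the sign changed, and 0 of these were past the threshold in either fit, the smallest adjusted p among them being 0.716. With array weights these were Fos 0.014 for irradiation with vehicle, Pth1r 0.24 and Fos -0.034 for PTH after irradiation, Pde4b -0.0050, Pde4d -0.045, Rgs2 -0.040 and Nr4a1 -0.043 for PTH without irradiation. With arrays centred on their medians these were Crem 0.0042 for irradiation with PTH, Pde4b -0.048 and Rgs2 -0.050 for PTH without irradiation. With both narrow-range arrays left out these were Fos 0.013 for irradiation with vehicle, Fos -0.028 for irradiation with PTH, Fos -0.0076 for irradiation averaged over treatments, Pth1r 0.22, Rgs2 -0.19, Nr4a2 0.039 and Fos -0.045 for PTH after irradiation, Rgs2 -0.085 for PTH without irradiation, Rgs2 -0.10 for the difference between both irradiation effects. With the mean of all rows of a gene these were Pde4d 0.048 for irradiation with vehicle, Pde4d 0.011 for irradiation with PTH, Pde4d 0.029 for irradiation averaged over treatments, Pde4d 0.025 for PTH after irradiation. With quantile normalization repeated these were Fos 0.060 for irradiation with vehicle, Pde4b -0.047, Rgs2 -0.050 and Fos 0.0085 for PTH without irradiation. With the row of the largest interquartile range these were Pde4d 0.17 for irradiation with vehicle, Pde4d 0.37 for irradiation with PTH, Pde4d 0.27 for irradiation averaged over treatments, Pde4d 0.26 for PTH after irradiation. With sex as a term these were Crem 0.015 and Fos 0.019 for irradiation with vehicle, Pth1r -0.21, Pde4d -0.18, Nr4a1 -0.18 and Fos 0.065 for PTH without irradiation, Rgs2 -0.35 for the difference between both irradiation effects. The ranges over fits that left out 1 array, for values whose sign changed in such a fit, were as follows. For irradiation with vehicle Pde4d from -0.21 to 0.040, Crem from -0.28 to 0.089, Nr4a1 from -0.41 to 0.00068 and Fos from -0.028 to 0.013. For irradiation with PTH Pth1r from -0.15 to 0.26, Crem from -0.25 to 0.083 and Fos from -0.028 to 0.20. For irradiation averaged over treatments Crem from -0.18 to 0.015 and Fos from -0.020 to 0.095. For PTH after irradiation Pth1r from -0.20 to 0.22, Rgs2 from -0.19 to 0.24, Crem from -0.036 to 0.32, Nr4a2 from -0.21 to 0.039 and Fos from -0.045 to 0.19. For PTH without irradiation Pde4b from -0.096 to 0.095, Pde4d from -0.019 to 0.19, Rgs2 from -0.085 to 0.079, Crem from -0.049 to 0.29, Nr4a1 from -0.092 to 0.32 and Fos from -0.074 to 0.0028. For the difference between both irradiation effects Rgs2 from -0.19 to 0.23. Over all genes, the calls for irradiation with vehicle, with PTH and averaged were 442, 485 and 1216 as reported, 1149, 1148 and 2517 with array weights, and 304, 200 and 1084 with sex as a term. With only the groups compared, 232 genes were called for irradiation with PTH and 4 for PTH without irradiation. Leaving out 1 array gave 211 (without irradiated vehicle replicate 2) to 762 (without irradiated PTH replicate 3) with vehicle, 225 to 531 with PTH and 822 to 1393 averaged. The filter on dim genes left out the members Crem, Nr4a1 and Fos, which have no value under it. Of the pathway genes followed through the alternatives, it also left out Gnal, Il6 and Ccl2.

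The titles number the arrays 1 to 3 in each group without saying that a number marks a shared litter or day. Of 18 pairs of arrays with the same number in different groups, 10 had a correlation of deviations from the group means over 0.1, with a range of -0.650 to 0.596, and 7 of 12 arrays correlated best with their own number. With the replicate block, Pde4b and Rgs2 kept all their irradiation calls, the member counts stayed at 2, 2 and 2, and the calls over all genes were 500 for vehicle, 672 for PTH and 1407 for the average. Among other genes named, Pde2a (adjusted p = 0.0468) and Sik1 (0.0497) then passed.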
